A study of Mus musculus with 13 samples.

Results

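The expression of 10 genes of the xenobiotic and oxidative stress response was compared between CGR8 mouse embryonic stem (ES) cells grown with and without PhenDC3. The genes were taken by symbol from a table of RNA-seq read counts that holds 24079 genes. They are Cyp1a1, Cyp1b1, Ahr, Tiparp, Nqo1, Hmox1, Gclm, Srxn1, Txnrd1 and Abcb1b, and all 10 were found. CGR8 is a feeder-free mouse ES cell line kept undifferentiated with LIF, and PhenDC3 is a small molecule that binds and stabilises G-quadruplexes (G4), structures of stacked guanines. Cells of the PhenDC3 group received 10 μM PhenDC3 in 0.5% DMSO for 48 h, and control cells received 0.5% DMSO alone for the same time. RNA-seq had 3 replicates of each condition. Short nascent strands, the RNA-primed DNA made where replication starts, were sequenced (SNS-seq) in 3 control and 2 PhenDC3 replicates. The study tested a single line at a single dose and time.

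Cells meet foreign aromatic compounds through the aryl hydrocarbon receptor (AhR, the product of Ahr), which waits in the cytoplasm bound to the chaperone HSP90. A ligand sends it to the nucleus, where it pairs with ARNT and binds DNA elements with the core GCGTG. Its classic targets are the cytochrome P450 genes Cyp1a1 and Cyp1b1, the ADP-ribosyltransferase gene Tiparp, which feeds back to restrain the receptor, and Nqo1. Oxidants and electrophiles act through NRF2, which KEAP1 otherwise sends to degradation. NRF2 pairs with small MAF proteins at antioxidant response elements, with the core TGACNNNGC (N is any base), and BACH1 competes for the same elements. Nqo1, Hmox1, Gclm, Srxn1 and Txnrd1 are standard NRF2 targets. Abcb1b encodes a P-glycoprotein, an efflux pump that exports many drugs from mouse cells.

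The promoters of these genes were read first, since an SNS-seq peak or a match to the letters of a response element lies there for several of them. RefSeq windows of 250 bases before to 50 bases after annotated starts (GRCm38.p6, the assembly of mm10) were found for 8 of the 10 genes, in 10 windows, all but those of Ahr and Hmox1. Of the 2 annotated starts of Cyp1a1, only that at chr9:57697613 had a window. The motifs were searched on both strands. The letters GCGTG stood in 8 of the 10 windows and in 6 of the 8 genes, against 32.4% of all 32851 windows. TGACNNNGC stood in 3 windows, those of Gclm, Srxn1 and the middle start of Txnrd1, against 12.4% of all windows. In no window of the 8 genes did the 2 motifs overlap each other. A predicted G4 (at least 4 runs of 3 or more G with loops of 1 to 7 bases, on either strand) stood in the windows of Cyp1b1, Tiparp and Abcb1b, against 18.6% of all windows. These are matches of letters and not measured binding sites. Below are 3 stretches just upstream of the start, each read in the direction of the gene and with matches of either motif in capitals. Cyp1a1 (chr9:57697363-57697612, plus strand) is shown because SNS-seq peaks summit within it, and its GCGTG begins 54 bases before the start. Nqo1 (chr8:107403206-107403455, minus strand) is shown as a target of both pathways whose window held neither string of letters. Txnrd1 (chr10:82859009-82859205, plus strand) is shown because its stretch holds 1 match of each motif, TGACNNNGC on the opposite strand and GCGTG on the strand shown.
Cyp1a1: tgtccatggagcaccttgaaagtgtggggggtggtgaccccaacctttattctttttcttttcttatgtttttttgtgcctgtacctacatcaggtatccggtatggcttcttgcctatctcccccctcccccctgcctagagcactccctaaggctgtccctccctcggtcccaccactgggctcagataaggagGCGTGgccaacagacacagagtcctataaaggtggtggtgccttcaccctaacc
Nqo1: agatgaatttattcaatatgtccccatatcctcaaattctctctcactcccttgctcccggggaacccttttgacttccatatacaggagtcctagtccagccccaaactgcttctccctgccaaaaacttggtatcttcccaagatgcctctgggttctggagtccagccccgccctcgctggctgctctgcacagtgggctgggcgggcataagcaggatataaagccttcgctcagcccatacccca
Txnrd1: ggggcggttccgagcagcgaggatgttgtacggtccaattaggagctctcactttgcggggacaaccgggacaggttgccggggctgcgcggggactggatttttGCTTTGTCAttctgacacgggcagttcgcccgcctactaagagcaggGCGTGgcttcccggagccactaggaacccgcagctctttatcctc

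The samples held 22232014 to 29486502 counts, and levels are given as CPM, counts scaled to a common library total after relative log expression normalization. Differences are log2 fold changes of PhenDC3 over control from edgeR's quasi-likelihood test, with a standard error and a p-value adjusted by Benjamini-Hochberg over all 13972 genes tested, and a gene was called at an adjusted p of at most 0.05. By this rule 18.0% of all genes tested were higher and 18.7% lower with PhenDC3, 36.8% in either direction, with a median log2 fold change of 0.01. Nothing in the sources used here says that the 3 RNA replicates of a condition were separate cultures, so the p-values measure the spread between these samples. The ribosomal precursor transcript Rn45s took 2.55% to 5.70% of the control counts and 0.172% to 1.43% of the PhenDC3 counts. Leaving it and Lars2 out of the table changed the call of none of the 10 genes. The 10 ES cell markers were all expressed, at a summed level of 7775 to 8494 CPM in control and 9293 to 10340 CPM with PhenDC3, and 4 of them were higher and 3 lower. Of 18 markers of fibroblasts and early lineages, 13 could be tested, 6 were higher and 2 were lower. All 4 endoderm markers tested were higher, with a sum over the 6 listed of 16.3 to 27.7 CPM in control and 40.6 to 52.5 CPM with PhenDC3, while Alb had no count in any sample. The sums of the fibroblast markers were 12.6 to 22 and 23.0 to 25.6 CPM, and those of the mesoderm and ectoderm markers 28.9 to 30.4 and 42.0 to 45.5 CPM. These sums hide moves in both directions. Of the fibroblast markers, Pdgfra was called higher (mean 10.5 to 19.7 CPM) and Thy1 lower (5.03 to 2.02 CPM). Of the mesoderm and ectoderm markers, Nes was called higher (14.0 to 33.1 CPM) and Pax6 lower (7.13 to 1.92 CPM). The part of these shifts in the results below was not tested. In bulk RNA, fewer cells that express a gene and less of its RNA per cell cannot be told apart.

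The 10 genes did not move as a block. Abcb1b, Nqo1 and Cyp1a1 were higher with PhenDC3, Tiparp, Hmox1 and Gclm were lower, and Cyp1b1, Srxn1, Ahr and Txnrd1 did not pass the test. This gives 3 of 10 higher beside 18.0% of all genes tested, and 3 of 10 lower beside 18.7%. All 10 passed the filter on low counts, but Cyp1a1 passed it through the PhenDC3 samples alone, so its rise is a description. The 2 groups did not overlap for 7 of the 10, beside 50.6% of all genes tested. The median log2 fold change of the 10 was 0.24. The calls of Cyp1a1, Hmox1 and Gclm were each lost without PhenDC3 replicate 1, which left 3 of the 10 called. Over all genes, 3332 of 14195 tested were then called, against 5135 of 13972 with all samples.

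**Figure D1:**
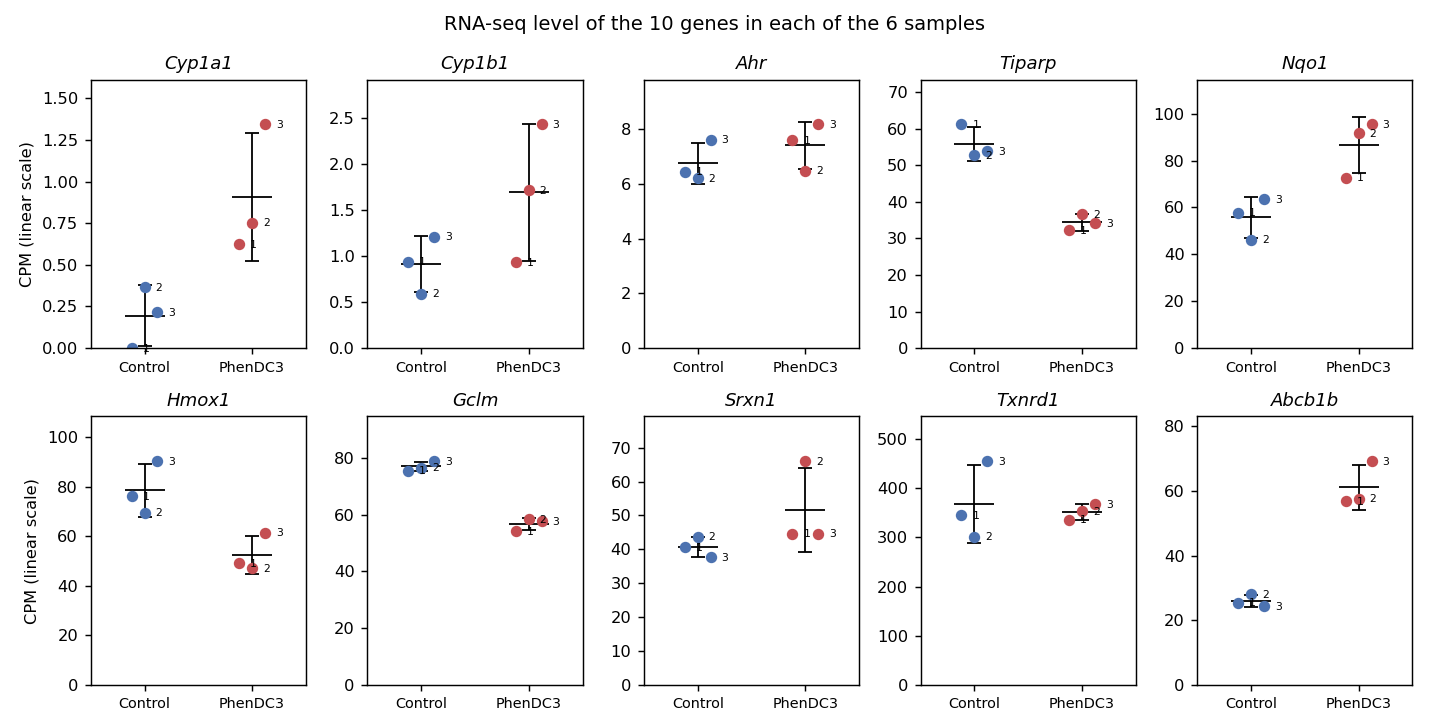
RNA-seq level of each of the 10 genes in CPM (vertical axes, linear and starting at 0) in the 3 control (blue) and 3 PhenDC3 (red) samples, numbered by replicate, with the mean and SD as black lines. The PhenDC3 points lie above all control points for Cyp1a1, Nqo1, Srxn1 and Abcb1b and below them for Tiparp, Hmox1 and Gclm, and the groups overlap for Cyp1b1, Ahr and Txnrd1.

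Levels in control cells were compared between genes per kilobase of annotated exon. Txnrd1, the cytosolic thioredoxin reductase, was the most abundant at 91.3 ± 19.7 CPM per kb (SD, n = 3). Hmox1 followed at 49.9 ± 6.77 CPM per kb, and then came Gclm at 37.2 ± 0.825 and Nqo1 at 36.0 ± 5.63 CPM per kb, whose control ranges overlapped. Srxn1 (14.5 ± 1.09 CPM per kb) and Tiparp (13.5 ± 1.11 CPM per kb) also overlapped. Abcb1b stood at 5.98 ± 0.437 CPM per kb and the receptor gene Ahr at 1.23 ± 0.137 CPM per kb. The AhR targets Cyp1b1 and Cyp1a1 were the lowest, at 0.177 ± 0.0600 and 0.0695 ± 0.0658 CPM per kb, with overlapping ranges. With PhenDC3, the levels of Nqo1 (55.8 ± 7.83 CPM per kb), Hmox1 (33.4 ± 4.88 CPM per kb) and Gclm (27.4 ± 1.08 CPM per kb) stood in another order than in control. The levels of Cyp1a1 and Cyp1b1 became close, at 0.325 ± 0.138 and 0.328 ± 0.145 CPM per kb.

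The receptor gene Ahr (chr12:35497979-35534989, minus strand) was expressed in every sample. Its level was 6.44, 6.20 and 7.61 CPM in control replicates 1 to 3 and 7.60, 6.48 and 8.17 CPM in PhenDC3 replicates 1 to 3. The groups overlapped, and the log2 fold change was 0.14 ± 0.17 (SE, adjusted p = 0.557). Its partner Arnt, shared with other factors of its family, had a log2 fold change of −0.06 ± 0.14 (adjusted p = 0.785). The repressor Ahrr, itself an AhR target, was near the lower limit of detection, at 0.181 to 0.775 CPM in control and 0.451 to 0.585 CPM with PhenDC3 (log2 fold change 0.30 ± 0.51, adjusted p = 0.675). The direction of Arnt and of Ahrr turned when single samples were left out.

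Cyp1a1 (chr9:57687928-57703824, plus strand), the oxidase that AhR ligands induce most strongly in many tissues, was detected at a handful of reads. The control replicates had 0, 8 and 5 counts and the PhenDC3 replicates 18, 18 and 37 counts. In CPM these were 0, 0.365 and 0.216 against 0.624, 0.753 and 1.34, so every PhenDC3 sample was above every control sample. The count of 0 in control replicate 1 allows a level of up to 0.109 CPM (3 counts, counting error only). In the fit this was a log2 fold change of 2.28 ± 0.72 (adjusted p = 0.0339). All control samples were under the filter on low counts, 0.388 CPM. The gene was thus tested only through the group where it is high, and its values are a description. The call rested on few reads, and it was lost without control replicate 1 (log2 1.63, adjusted p = 0.0625), control replicate 3 (2.42, adjusted p = 0.0511), PhenDC3 replicate 1 (2.49, adjusted p = 0.0546) or PhenDC3 replicate 3 (1.88, adjusted p = 0.121). Without control replicate 2 the log2 fold change was 3.12 and the call was kept. The neighbour and paralog Cyp1a2, which could share reads with it, had 2, 1 and 8 counts in control and 1, 0 and 2 with PhenDC3 and was not tested.

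Cyp1b1 (chr17:79706940-79715061, minus strand), a second P450 of the AhR battery, had 26, 13 and 28 counts in control and 27, 41 and 67 with PhenDC3. Its levels were 0.941, 0.593 and 1.21 CPM against 0.937, 1.71 and 2.43 CPM. PhenDC3 replicate 1 lay within the control range and the other two above it. The log2 fold change was 0.88 ± 0.41, and it did not pass the test (adjusted p = 0.123).

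Tiparp (chr3:65528447-65555518, plus strand) was lower with PhenDC3. It stood at 61.1, 52.7 and 53.8 CPM in control and at 32.2, 36.6 and 34.2 CPM with PhenDC3, with no overlap. This was a 1.63-fold lower level, or a log2 fold change of −0.70 ± 0.11 (adjusted p = 0.00177), and the call was kept whichever sample was left out (adjusted p of 0.00223 to 0.0153). The noncoding gene on its opposite strand, 4931440P22Rik, had 0 to 2 counts per sample.

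Nqo1 (chr8:107388225-107403205, minus strand) encodes a quinone reductase that both AhR and NRF2 induce. It rose from 57.7, 46.3 and 63.4 CPM to 72.8, 91.7 and 95.4 CPM. The lowest PhenDC3 sample was above the highest control sample. The difference was 0.63 ± 0.15 on the log2 scale (adjusted p = 0.0113), and the adjusted p stayed between 0.00776 and 0.0446 when each sample was left out.

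Hmox1 (chr8:75093618-75100593, plus strand), the inducible heme oxygenase and a common readout of oxidative stress, fell with PhenDC3. Its level was 76.1, 69.5 and 90.4 CPM in control and 49.2, 47.2 and 61.4 CPM with PhenDC3, again without overlap. The log2 fold change was −0.58 ± 0.14 (adjusted p = 0.0131), and the adjusted p was 0.0635 without PhenDC3 replicate 1. The constitutive isozyme Hmox2 had 38.7, 35.7 and 35.4 CPM in control and 30.2, 28.4 and 29.5 CPM with PhenDC3 (log2 fold change −0.32 ± 0.11, adjusted p = 0.0430). The ratio of Hmox1 to Hmox2 was 1.97, 1.94 and 2.56 in control and 1.63, 1.66 and 2.08 with PhenDC3, which overlapped (exact permutation test over the 6 samples, two-sided, p = 0.3).

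Gclm (chr3:122245487-122267215, plus strand), the modifier subunit of glutamate-cysteine ligase, which starts glutathione synthesis, had the tightest replicates of the called genes. It stood at 75.6, 76.6 and 78.9 CPM in control and fell to 54.2, 58.4 and 57.7 CPM. The log2 fold change was −0.44 ± 0.10 (adjusted p = 0.00797), and the adjusted p was 0.0554 without PhenDC3 replicate 1. The catalytic subunit Gclc had 76.7, 65.9 and 74.2 CPM against 66.6, 71.8 and 76.4 CPM, and its log2 fold change was −0.01 ± 0.11 (adjusted p = 0.933). The ratio of Gclm to Gclc counts went from 0.986, 1.16 and 1.06 to 0.814, 0.814 and 0.756, a log2 difference of −0.43 ± 0.08, with no overlap. The exact permutation p was 0.1, the smallest that 3 samples against 3 can give. Over the 3 ratios tried, which were chosen after the values were seen, the adjusted p was 0.15 for this ratio.

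Srxn1 (chr2:152105524-152111376, plus strand), which repairs overoxidised peroxiredoxins, had 40.6, 43.8 and 37.6 CPM in control and 44.6, 66.0 and 44.6 CPM with PhenDC3. All PhenDC3 samples were above all control samples, but replicates 1 and 3 only just. The log2 fold change of 0.35 ± 0.17 did not pass the test (adjusted p = 0.132). Txnrd1 (chr10:82833951-82897724, plus strand) had 345, 301 and 455 CPM in control and 336, 353 and 368 CPM with PhenDC3. The PhenDC3 samples lay inside the control range, with a log2 fold change of −0.06 ± 0.15 (adjusted p = 0.786). Without control replicate 3, the highest sample, the log2 fold change was 0.12 (adjusted p = 0.441).

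Abcb1b (chr5:8798147-8866314, plus strand), the P-glycoprotein gene, had the smallest adjusted p of the 10. It rose from 25.4, 28.1 and 24.4 CPM to 56.8, 57.6 and 69.2 CPM. This was a 2.36-fold higher level, with a log2 fold change of 1.24 ± 0.12 (adjusted p = 0.000189), and the adjusted p was 0.000395 to 0.00237 when each sample was left out. Its paralog Abcb1a, the other P-glycoprotein gene of the mouse, had 18.2, 20.8 and 18.9 CPM in control and 19.2, 17.1 and 22.5 CPM with PhenDC3. These overlapped, with a log2 fold change of 0.02 ± 0.14 (adjusted p = 0.913). The ratio of Abcb1b to Abcb1a counts was 1.39, 1.35 and 1.29 in control and 2.96, 3.37 and 3.08 with PhenDC3. The log2 difference was 1.22 ± 0.06 (exact permutation p = 0.1, the smallest possible, adjusted p = 0.15 over the 3 ratios). The sequences of this pair are alike, so reads may be shared between them, and how the counting treated such reads is not given in the sources used here. An annotated gene on the opposite strand of Abcb1b, Gm5106, is not in the count table.

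**Figure D2:**
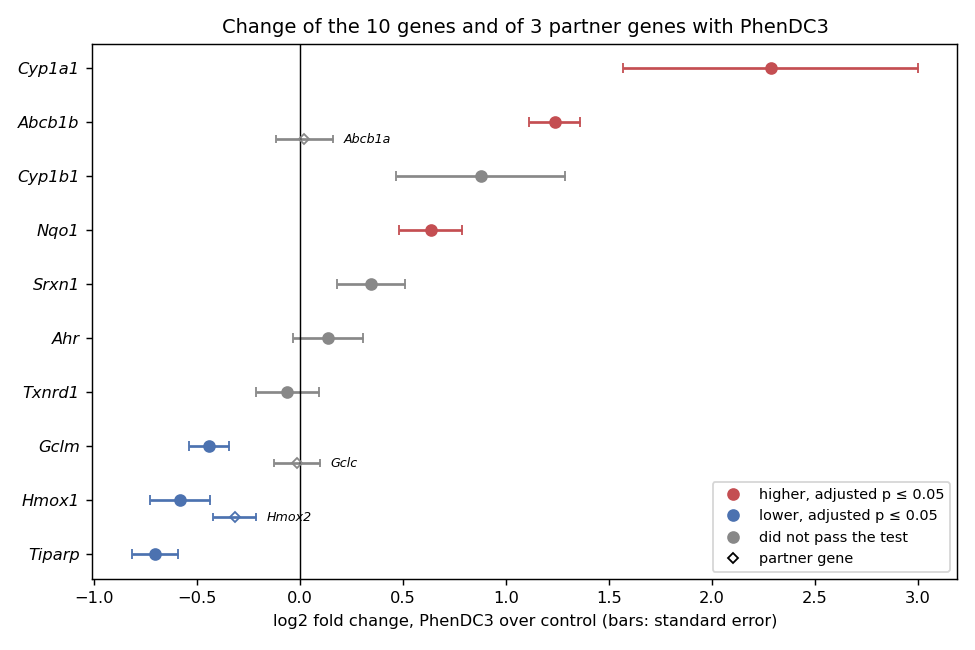
Log2 fold change of PhenDC3 over control for the 10 genes (filled circles) and for Abcb1a, Gclc and Hmox2 (open diamonds below their partners), with the standard error of the edgeR fit as bars (n = 3 and 3). Red marks genes called higher, blue genes called lower and grey genes that did not pass the test, and the range runs from −0.70 for Tiparp to 2.28 for Cyp1a1.

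The rest of these pathways was read from 8 lists that together hold 111 other genes, of which 94 could be tested. In all, 20 of the 94 were higher with PhenDC3, beside 18.0% of all genes tested, and 31 were lower, beside 18.7%. Together these were 54.3% of those tested beside 36.8% of all genes, and the median log2 fold change of the 94 was −0.08. The lists were chosen with earlier results of these data known, so these shares are a description. Without PhenDC3 replicate 1, 10 were higher, and without control replicate 1, 13. Calls over all genes, in either direction, fell as well, from 5135 of 13972 tested with all samples. They were 3332 of 14195 without PhenDC3 replicate 1 and 4101 of 14232 without control replicate 1. Whether the pathway genes lost more calls than all genes was not tested. By list, the share called was 40% of the tested AhR pathway genes, of the NRF2 regulators and of the thioredoxin and NADPH genes, and 44.4% of the heme and iron genes, close to that of all genes. It was 52.6% of the general antioxidant enzymes, 62.5% of the efflux transporters, 66.7% of the glutathione genes and 76.9% of the other xenobiotic genes. Among the 20 higher genes, Abcb4 and Nat1 passed the filter on low counts through the PhenDC3 samples alone. Abcb4 is nevertheless counted in the share of the efflux transporters, Nat1 in that of the other xenobiotic genes, and both in the 54.3%. Of the 14 AhR pathway genes, 10 were tested, 3 were higher and 1 was lower. The aldehyde dehydrogenase gene Aldh3a1, an AhR target in several cell types, had 1.88, 1.64 and 0.951 CPM in control and 4.27, 3.64 and 3.01 CPM with PhenDC3 (log2 fold change 1.28 ± 0.29, adjusted p = 0.00858). Hsp90aa1, which encodes the inducible HSP90, rose by a log2 of 0.48 (adjusted p = 0.0153, and 0.0532 without PhenDC3 replicate 1). Tgfbi, a matrix protein gene, fell from 5.81 ± 1.06 CPM to 1.32 ± 0.235 CPM (SD, n = 3, log2 fold change −2.14 ± 0.24, adjusted p = 0.000303). Nedd9, a scaffold protein gene, had a log2 fold change of 0.91 (adjusted p = 0.0446), and this call was lost with DESeq2 (adjusted p = 0.0639), without the filter on low counts (0.0543) and when any of the 6 samples was left out (0.0598 to 0.194).

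Of the 10 regulators of NRF2, 2 were higher and 2 lower. Nfe2l2, which encodes NRF2, had a log2 fold change of 0.17 ± 0.10 (adjusted p = 0.208), and Keap1 one of 0.19 ± 0.12 (adjusted p = 0.219). The repressor Bach1 rose from 66.9, 47.6 and 73.8 CPM to 121, 103 and 144 CPM (log2 fold change 0.96 ± 0.18, adjusted p = 0.00385). Every PhenDC3 sample was above every control sample for Bach1. Nfe2l1, a relative of NRF2, was higher by a log2 of 0.48 (adjusted p = 0.0208), and the call was lost without control replicate 1 or 2 or without PhenDC3 replicate 1 or 3 (adjusted p up to 0.0794). The small MAF gene Maff was lower (log2 fold change −0.60, adjusted p = 0.0137), as was Rbx1 (−0.51, adjusted p = 0.00906), which encodes the RING subunit of the ligase that KEAP1 serves. Without PhenDC3 replicate 1 the adjusted p was 0.0639 for Maff and 0.0535 for Rbx1, and without PhenDC3 replicate 3 it was 0.0520 for Maff.

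Among the listed genes of glutathione metabolism, 15 of 18 were tested, 3 were higher and 7 lower, with a median log2 fold change of −0.08. Whether NRF2 controls each of them in these cells was not tested. The genes with the largest falls were Ggt1, which breaks down extracellular glutathione (log2 fold change −2.46 ± 0.36, adjusted p = 0.00119), and Gpx2, a glutathione peroxidase (−2.21 ± 0.20, adjusted p = 0.000121). Gpx2 went from 16.3, 15.2 and 18.9 CPM to 4.44, 2.80 and 3.59 CPM. Chac1, which degrades glutathione in the cytosol, was lower as well (−2.17 ± 0.65, adjusted p = 0.0289), but its control replicates ranged from 2.46 to 16.5 CPM. Its call was lost without the filter on low counts (adjusted p = 0.115) and without control replicate 1 or 2 or PhenDC3 replicate 1 or 3 (adjusted p up to 0.0910), with a log2 fold change of −1.34 without control replicate 2. The higher genes were Gss, glutathione synthetase (0.85 ± 0.13, adjusted p = 0.00154), and the transferases Gstm2 (0.69 ± 0.15, adjusted p = 0.00771) and Gsta3 (0.97 ± 0.29, adjusted p = 0.0282). The call of Gsta3 was lost without PhenDC3 replicate 1 (adjusted p = 0.0897) or 2 (adjusted p = 0.0710).

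Of 11 thioredoxin and NADPH genes, 10 were tested, 2 were higher and 2 lower. The malic enzyme gene Me1 rose (log2 fold change 0.75, adjusted p = 0.00134) with Idh1 (0.55, adjusted p = 0.0105, and 0.0581 without PhenDC3 replicate 1), and both encode enzymes that make NADPH in the cytosol. The pentose phosphate genes Tkt (−0.92, adjusted p = 0.000564) and G6pdx (−0.72, adjusted p = 0.0141) fell. Of 9 heme and iron genes besides Hmox1, 4 were called lower and none higher (edgeR, and DESeq2 likewise, with none higher at an unadjusted p under 0.05 in edgeR), among them the iron exporter gene Slc40a1 (−1.36, adjusted p = 0.00688) and the ferritin heavy chain gene Fth1 (−0.90, adjusted p = 0.00226). The calls of Ftl1 and Hmox2, the other two of the 4, were both lost without the filter on low counts and without control replicate 1 or 2 or PhenDC3 replicate 1 or 3, which left 2 lower, and that of Hmox2 also without PhenDC3 replicate 2. Fth1 went from 427, 552 and 441 CPM to 238, 299 and 223 CPM. The ferritin light chain gene Ftl1 was lower by a smaller margin (−0.34, adjusted p = 0.0401), and without PhenDC3 replicate 1 its adjusted p was 0.142. Its call was also lost without control replicate 3 (adjusted p = 0.0701).

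The 8 drug efflux transporters besides Abcb1b were all tested, with 3 higher and 2 lower. Abcg2, which encodes the breast cancer resistance protein, fell from 73.5, 59.6 and 70.0 CPM to 28.9, 19.7 and 34.8 CPM (log2 fold change −1.28 ± 0.19, adjusted p = 0.00135). It kept its call whichever sample was left out. Abcb4, next to the P-glycoprotein genes on the chromosome and named here after its values were seen, had 7, 6 and 2 counts in control and 24, 12 and 16 with PhenDC3. Its control samples were all under the filter on low counts, so it was tested only through the group where it is high, and its values are a description. Its call was lost with DESeq2, and also without control replicate 3, among others. Abcc3 rose from 0.726 ± 0.319 to 1.58 ± 0.278 CPM (SD, n = 3, adjusted p = 0.0426). Abcc5 was higher by a log2 of 0.34 (adjusted p = 0.0375), and Abcc4 was lower (log2 fold change −0.41, adjusted p = 0.0495). The call of Abcc5 was lost without the filter on low counts (adjusted p = 0.0531). The calls of Abcc3 and Abcc5 were lost without control replicate 1 or 2 or without PhenDC3 replicate 1 or 3, and also without PhenDC3 replicate 2. That of Abcc4 was lost without control replicate 1 or 3 or PhenDC3 replicate 1 or 2. The adjusted p then reached 0.139 for Abcc3, 0.129 for Abcc5 and 0.159 for Abcc4. Without control replicate 1 or PhenDC3 replicate 1 or 3, none of Abcb4, Abcc3 and Abcc5 was called.

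Of 21 other xenobiotic enzymes and receptors, 13 were tested, 4 were higher and 6 lower, and the median log2 fold change was −0.38. The 2 epoxide hydrolase genes moved in opposite directions. Ephx1, the microsomal form, which acts on foreign epoxides, rose from 11.8, 11.7 and 11.5 CPM to 25.3, 27.9 and 26.5 CPM (1.19 ± 0.12, adjusted p = 0.000175). Ephx2, the soluble form, which acts on lipid epoxides, fell from 27.4, 27.6 and 28.5 CPM to 9.40, 12.2 and 10.6 CPM (−1.38 ± 0.13, adjusted p = 0.000169). The aldo-keto reductase gene Akr1b8 fell (−1.71 ± 0.14, adjusted p = 8.86e-05), as did the carbonyl reductase gene Cbr1 (−0.62, adjusted p = 0.00707), while the retinoid X receptor gene Rxra rose (1.09 ± 0.12, adjusted p = 0.000321). Nat2, an acetyltransferase gene, was higher (0.97, adjusted p = 0.0322), a call lost without control replicate 3 or PhenDC3 replicate 1 or 3 (adjusted p up to 0.107). Its neighbour Nat1, named after its values were seen, had 5, 1 and 4 counts in control and 32, 30 and 30 with PhenDC3. It too passed the filter on low counts through the PhenDC3 samples alone, so these counts are a description.

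Of 20 general antioxidant enzymes, 19 were tested, 3 were higher and 7 lower. The higher genes were the peroxidases Gpx3 (0.79, adjusted p = 0.0121) and Gpx1 (0.65, adjusted p = 0.00208) and the mitochondrial superoxide dismutase Sod2 (0.44, adjusted p = 0.0129). Without control replicate 1 the adjusted p was 0.0539 for Gpx3 and 0.0510 for Sod2, and for Sod2 it was 0.0680 without PhenDC3 replicate 1. The largest falls were those of Txnrd3 (−1.34 ± 0.17, adjusted p = 0.000540), a thioredoxin reductase related to Txnrd1, and of the peroxiredoxins Prdx4 (−0.73, adjusted p = 0.00326) and Prdx5 (−0.70, adjusted p = 0.00227).

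**Figure D3:**
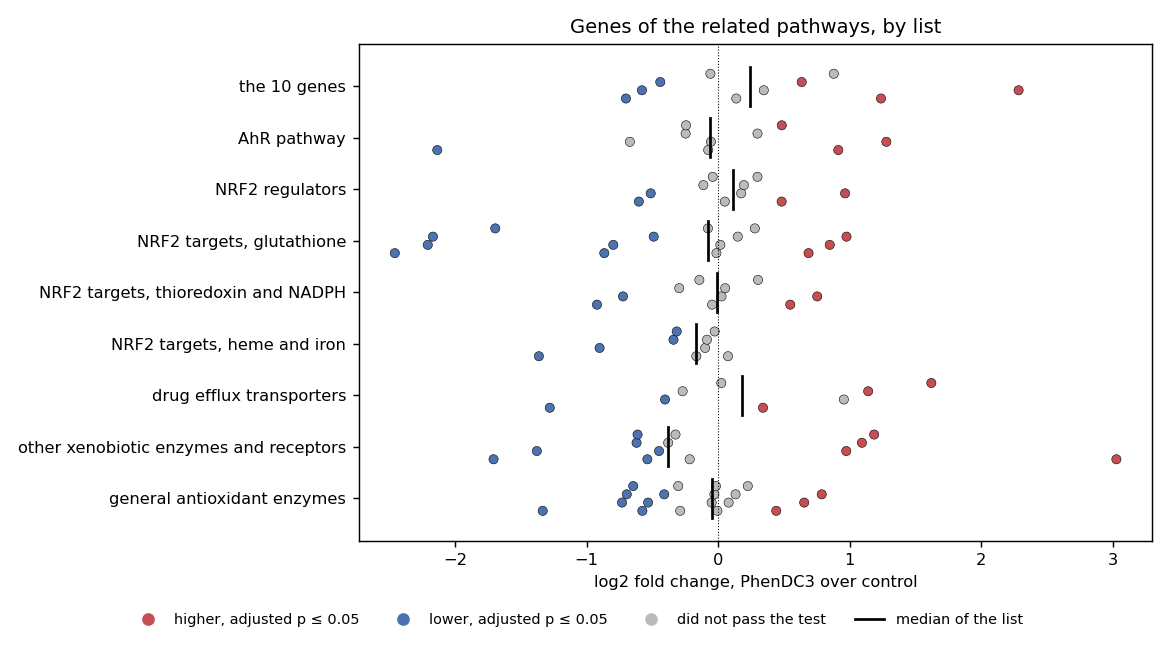
Log2 fold change of PhenDC3 over control (horizontal axis) for every tested gene of the 10 genes and of the 8 lists, 1 point a gene, with the median of each list as a black bar. Red and blue points passed the test as higher or lower; every list but that of the heme and iron genes holds both, and the medians lie between −0.38 and 0.24.

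Replication initiation near the starts of the 10 genes was read from the SNS-seq peak lists. A peak counted when it lay within 2 kb of a RefSeq start. The authors called peaks replicate by replicate, with a single RNase-treated library per condition as the reference, and the lists hold no read counts, so the depth is unknown. The lists held 120882, 81211 and 79377 peaks in the control replicates and 144103 and 102400 in the PhenDC3 replicates. Of the 10 genes, 6, 6 and 1 had a peak in the control replicates and 6 and 3 in the PhenDC3 replicates. Over all 26180 annotated genes the share was 49.4%, 46.4% and 30.2% in control and 50.3% and 35.9% with PhenDC3. The mean number of the 10 genes with a peak was 4.33 in control and 4.50 with PhenDC3 (exact permutation test, two-sided, p = 1.0, with 0.1 the smallest that 3 samples against 2 can give). Control replicate 3 had a peak at Tiparp alone.

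Cyp1a1 had a peak over its start in 4 of the 5 lists, all but control replicate 3. A peak within 2 kb in these same lists alone was seen for 6.14% of all genes. The summits lay 36 and 7 bases before the start in control replicates 1 and 2 and 23 and 16 bases before it in PhenDC3 replicates 1 and 2, within the stretch of sequence printed above. The fold enrichment over the RNase-treated library was 9.47 and 9.86 in control and 12.3 and 10.0 with PhenDC3. Further peaks within 2 kb stood in both PhenDC3 lists at like places, with summits 1471 and 1397 bases before this start (fold enrichment 7.49 and 3.54) and 1915 and 1942 bases after a second annotated start (6.43 and 6.54). The control lists had none there, and control replicate 1 had another, 413 bases before the start (3.69). The share of all genes with such further peaks in the PhenDC3 lists alone was not computed. Tiparp was the only one of the 10 with a peak in all 5 lists, as 19.1% of all genes had. Its peaks with the largest −log10 p had a fold enrichment of 13.6, 7.63 and 2.44 in control and 8.09 and 3.03 with PhenDC3. They lay at different places. In control the summits were 24 bases after, 702 before and 1250 after the start, and with PhenDC3 363 before and 1195 after it. Near the last place, control replicates 1 and 2 also had peaks, with summits 1265 and 1260 bases after the start (4.17 and 4.61). The peak of PhenDC3 replicate 1 likewise overlapped peaks of control replicates 1 and 2, with summits 688 and 447 bases before the start (6.62 and 7.95). Nqo1 and Abcb1b, both higher in RNA with PhenDC3, had no peak within 2 kb in any list, as 35.3% of all genes.

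Hmox1 had no peak in the 3 control lists and 1 in each PhenDC3 list, a pattern of 2.25% of all genes. The peaks lay within the gene, at chr8:75094173-75094292 in replicate 1 and chr8:75094050-75094183 in replicate 2, with summits 610 and 487 bases after the start and a fold enrichment of 5.26 and 4.95. Srxn1 showed peaks in control replicates 1 and 2 and in neither PhenDC3 list, a pattern of 4.01% of all genes. Gclm had a peak in control replicate 2 alone. Cyp1b1 had peaks in replicate 1 of each condition, but at different places. The summits lay 1437 and 1207 bases after the start in control and 120 bases before it with PhenDC3. Ahr and Txnrd1 had peaks in control replicates 1 and 2 and in PhenDC3 replicate 1. Those of Txnrd1 lay near its starts at chr10:82859206 and chr10:82860341 in control, and near another start, at chr10:82833951, with PhenDC3. With 3 and 2 lists, no difference at a single gene could reach an exact p below 0.1.

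**Figure D4:**
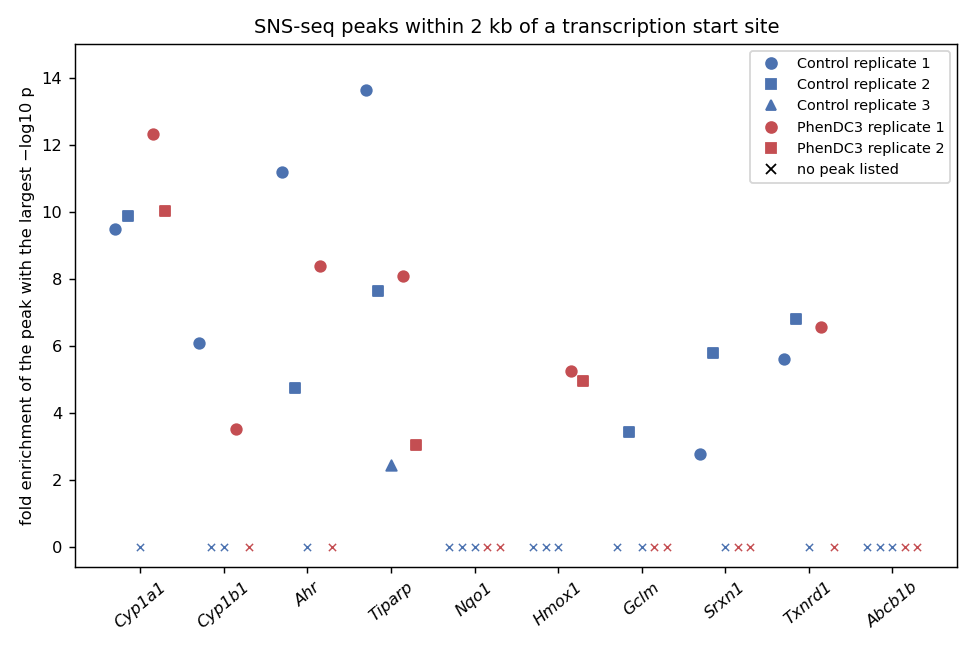
Fold enrichment over the RNase-treated library (vertical axis, linear) of the SNS-seq peak with the largest −log10 p within 2 kb of a start of each of the 10 genes, by replicate, with control in blue and PhenDC3 in red. Crosses at 0 mark lists with no such peak: Tiparp has no cross, Nqo1 and Abcb1b have crosses only, and Hmox1 has points in the 2 PhenDC3 lists alone. The peak plotted for a gene can lie at another place in another list.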

How the data were processed

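RNA was measured in 3 control and 3 PhenDC3 samples and SNS in 3 and 2, grouped by their labels. For RNA-seq, from stranded mRNA libraries, the authors mapped reads with TopHat2 2.1.1 and Bowtie2 2.2.9 and deposited raw counts per gene from HTSeq 0.6.1p1, one column per sample. The counting annotation and strand setting are not given in the sources used here. For SNS-seq, the authors mapped reads to mm10 with Bowtie2, called narrow peaks with MACS2 2.1.0 and kept peaks overlapping broad regions from SICER. Each deposited list gives a fold enrichment ratio over the RNase-treated library and a −log10 p-value of the peak caller. The authors' DESeq2 table (means, fold changes, p-values) and a table of normalized pseudo-counts were not used.

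Counts were tested with edgeR 4.0.16 (robust quasi-likelihood fit, relative log expression normalization, filterByExpr with a minimum count of 10, which is 0.388 CPM here). The standard error is the log2 fold change divided by the square root of F. Exon lengths, starts and promoters come from RefSeq GRCm38.p6, an annotation other than that used for the counts. Mitochondrial peaks were left out. The scripts were tested on simulated data.

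The members and lists were chosen with earlier results of these data known. Besides the 10 genes, the text names from each list up to 3 rises and 3 falls with the largest log2 fold change among called genes with a mean of at least 1 CPM, and partners, repressors and paralogs of the 10. Alternatives were TMM, DESeq2 1.42.0, no filter, at least 1 CPM in 3 samples, a replicate block, each sample left out, other distances and stronger peaks. Leaving out Rn45s and Lars2, and the 3 ratios, were added after the data were seen.

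Same-numbered samples were not taken as pairs, since the correlations of their deviations from the group means were 0.0983, 0.627 and 0.486, and the first did not pass the limit of 0.1 set for every pair.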

Additional observations from a re-analysis of the deposited data

How the results depend on the processing

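The calls of all 10 genes were the same with TMM (5147 genes called in all), DESeq2 (5438), no filter (5167) and without Rn45s and Lars2 (5138), against 5135. With at least 1 CPM in 3 samples (4841 called), 9 of the 10 were tested and kept their calls, and Cyp1a1 was not tested. With the replicate number as a block, 3797 genes were higher and 7489 were called in all, 5 of the 10 genes were higher, and Cyp1b1 (0.83, adjusted p = 0.0473) and Srxn1 (0.32, adjusted p = 0.0188) joined the calls. All 6 samples correlated best with their own number. The sample names of the counts are also numbered replicate by replicate, with control before PhenDC3 in each. No label says what the replicate number stands for, and the cause was not tested. With each sample left out, 1709 to 2689 genes were higher and 1623 to 2727 lower, and of the 10 genes 2 to 3 were higher and 1 to 3 lower. Of the pathway genes 10 to 20 were then higher and 21 to 30 lower. The log2 fold change ranged from 1.63 to 3.12 for Cyp1a1, −0.71 to −0.48 for Hmox1, −0.46 to −0.41 for Gclm, and −0.19 to 0.12 for Txnrd1. Of genes that were not called, the sign also turned for Arnt (−0.17 to 0.055), Ahrr (−0.11 to 0.93), Gclc (−0.082 to 0.036) and Abcb1a (−0.089 to 0.11). Within 5 kb of a start, the mean number of the 10 genes with an SNS-seq peak was 7.0 with PhenDC3 and 5.33 in control, against 4.5 and 4.33 within 2 kb. The share over all genes was not computed at 5 kb, so this difference cannot be set apart from one over all genes. The distance of 500 bp, the stronger peaks and the summits left both conditions within 1.5 times the values given. Depth limits Cyp1a1 and Cyp1b1, which had at most 37 and 67 counts in a sample.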
